A study of Mus musculus with 8 samples.

Results

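A set of 10 enzymes of hepatic bile acid synthesis was followed in livers of WT and HKO mice, namely Cyp7a1, Cyp8b1, Cyp27a1, Cyp7b1, Hsd3b7, Akr1d1, Amacr, Acox2, Slc27a5 and Baat. They were chosen by their known place in the pathway, at a time when earlier results of these livers were known, and make up 10 of the 17810 genes listed. RNA-Seq was carried out on whole livers of 4 WT and 4 HKO male littermates. HKO mice carry loxP-flanked miR-33 alleles and a Cre recombinase under the albumin promoter, which is meant to remove miR-33 in hepatocytes. Whether miR-33 was also lost in bile duct cells was not tested. Both genotypes received a high-fat diet lacking choline (CD-HFD), begun at 8 weeks of age and kept for 3 months, and the mice were 5 months old and perfused with PBS when livers were taken. No liver on another diet or at another age was analysed here, so every value below is a genotype difference on CD-HFD. Values are CPM, each gene's counts as a share of its library on a common scale after trimmed-mean (TMM) scaling. A gene is called when its adjusted p (Benjamini-Hochberg, over the 12395 genes tested) is under 0.05 in the quasi-likelihood test of edgeR.

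Bile acids are the end product of cholesterol breakdown in hepatocytes. The classic pathway opens with Cyp7a1, the rate-limiting 7α-hydroxylase, and the alternative pathway opens with side-chain oxidation by Cyp27a1 followed by 7α-hydroxylation by Cyp7b1. Hsd3b7 and Akr1d1 then rebuild the sterol ring, and Cyp8b1 adds the 12α-hydroxyl group that separates cholic acid from the other primary bile acids. Amacr and Acox2 take part in the peroxisomal steps that lead to a shorter side chain. Slc27a5 and Baat couple the product to taurine or glycine. Bile acids feed back on the first steps through the nuclear receptor FXR and its partner SHP.

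The mature miR-33 strand and its match in a member are shown so that the deleted RNA can be read beside the letters it could pair with. The miRNA lies at chr15:82198127-82198147 on the plus strand of GRCm38.p6 (RefSeq), and capitals mark its seed, bases 2 to 8.
miR-33-5p: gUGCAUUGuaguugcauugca
A seed match was counted as CAATGCA, opposite bases 2 to 8, or AATGCAA, opposite bases 2 to 7 and followed by A, on the sense strand of the annotated 3′UTR (GENCODE M21, the transcript with the longest 3′UTR). Of the 10 members, 1 held a match: Cyp7b1, with 1 at bases 71 to 77 of a 507-base 3′UTR, against 16.01% of the 21153 genes with a 3′UTR that held at least 1. Capitals mark the match.
Cyp7b1 3′UTR site: ggtgcactcccccaAATGCAAccgct
The other 9 members held none in this region or in the coding sequence. For Hsd3b7 that transcript is a short coding form. For comparison, Abca1, the cholesterol exporter best known as a miR-33 target, is printed with one of its sites, at bases 150 to 157.
Abca1 3′UTR site: atgcaatgcacttCAATGCAAcgaga
A match is a stretch of letters and does not show binding. Abca1 measured 298 ± 18.6 CPM in WT livers and 412 ± 47.5 CPM in HKO livers (SD, n = 4 each), with a log2 fold change of 0.47 ± 0.09 (SE; adjusted p = 0.0175, edgeR). Whether the Abca1 difference comes from the loss of miR-33 was not tested. The genotypes rest on the labels, since miR-33 itself was not analysed here.

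Libraries held 12174339 to 18735785 estimated counts. Hepatocyte markers were abundant throughout, with Alb at 62295 to 96088 CPM in WT livers and 47064 to 98815 CPM in HKO livers. HKO replicate 2 stood apart in markers of bile duct cells: Krt19 was at 16.9 CPM and Epcam at 16.5 CPM there, against at most 1.07 and 1.02 CPM in the other 7 livers, and the 8 cholangiocyte markers summed to 137 CPM against 31.2 to 53.5 CPM elsewhere. Its summed Kupffer cell markers, 74.7 CPM, were the lowest of the 8 livers, and 103 CPM in WT replicate 1 came next. Values without this liver are given for the members that were called. Sample order numbers run from 55 to 58 in HKO and from 59 to 62 in WT livers, so that order and genotype cannot be told apart. In bulk tissue, fewer cells of a type and less RNA per cell cannot be told apart either. The labels do not say whether livers were prepared separately beyond coming from different mice. The p-values set the difference between the groups against the spread between these livers.

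Of the 10 members, all of which passed the filter on low counts, 3 were called: Cyp27a1 and Slc27a5 were higher and Cyp8b1 was lower in HKO livers. Over all genes tested 5.03% were called, 1.66% as higher and 3.37% as lower (206 and 418 genes; 119 and 621 with total count scaling, which shifted the median of all genes to -0.08). In 4 members (Cyp7a1, Cyp8b1, Cyp27a1 and Slc27a5) all HKO values lay on the same side of all WT values, which was so for 12.5% of genes tested. The median log2 fold change of the members was 0.14, against 0.01 for all genes tested. Taken as a sum, the members held 0.222% to 0.262% of all counts in WT and 0.270% to 0.330% in HKO livers. The largest rises in mean behind this were in Cyp7b1 (107 to 387 CPM) and Cyp7a1 (124 to 311 CPM), neither of which was called. The highest share, 0.330%, was in HKO replicate 3, where Cyp7b1 stood at 966 CPM.

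**Figure D1:**
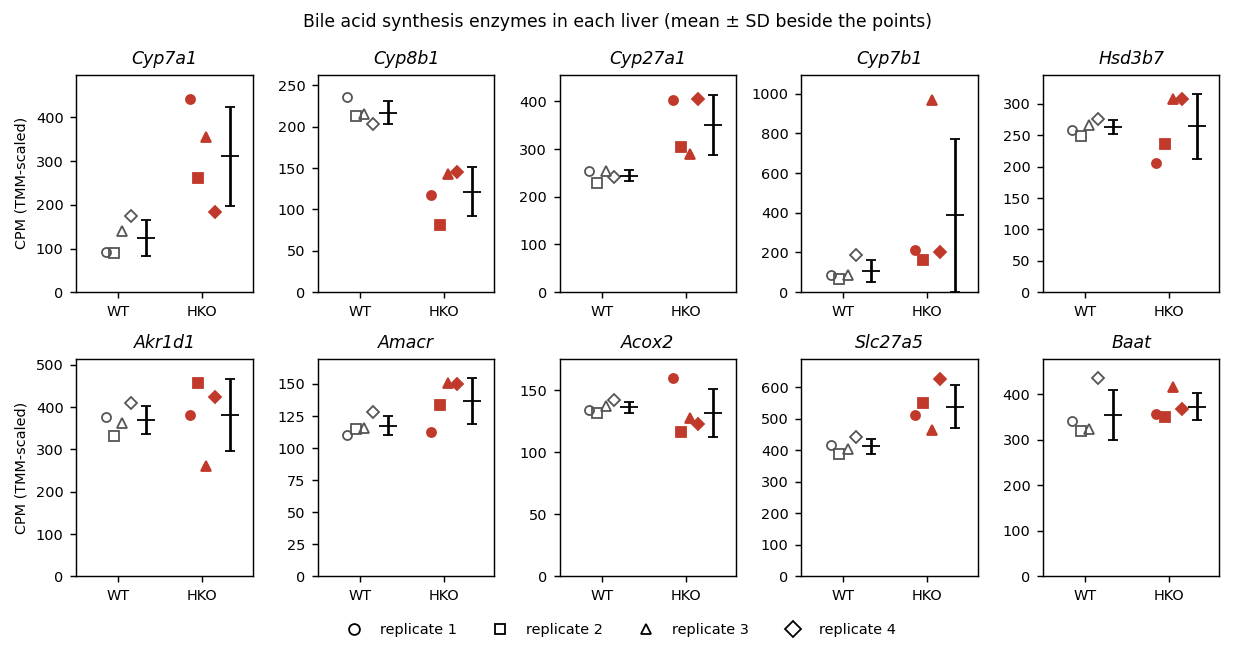
CPM of each of the 10 enzymes in each liver (linear axis from 0), WT as open grey and HKO as filled red symbols, with shape giving the replicate number and a bar at the mean ± SD (the lower end of the HKO bar of Cyp7b1 ends at the axis). Cyp8b1 sits at 203 to 236 CPM in WT livers and 81.4 to 145 CPM in HKO livers, and 1 HKO liver reaches 966 CPM of Cyp7b1.

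The clearest change was in Cyp8b1. Its WT livers measured 236, 213, 216 and 203 CPM in replicates 1 to 4. Its HKO livers measured 117, 81.4, 142 and 145 CPM. Every HKO liver was below every WT liver, and the WT values lay close together (coefficient of variation 6.29%) while the HKO values were wider (24.3%). The log2 fold change was -0.84 ± 0.16 (SE, 95% interval -1.19 to -0.48; adjusted p = 0.0176, edgeR), or 0.560 of the WT level. The lowest value belonged to HKO replicate 2, the liver with the bile duct markers; without it the log2 fold change was -0.69 with an adjusted p of 0.0057 (edgeR). The call was lost without WT replicate 1 (adjusted p = 0.0602), WT replicate 2 (0.0632) or HKO replicate 1 (0.0509), with log2 fold changes of -0.93 to -0.69 over the 8 edgeR fits that left out 1 liver. It was kept by DESeq2, by limma-voom and under every other scaling and filter tried.

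Cyp8b1 has a single exon and lies at chr9:121914356-121916305 on the minus strand of GRCm38. Its promoter is printed because it is the member with the clearest change and is one of 5 members for which a promoter was at hand. The window runs from 250 bases before to 50 bases after the RefSeq start (chr9:121916256-121916555, minus strand, GRCm38.p6). Motifs were searched on both strands, and capitals mark CAAAGTCCA (an HNF4A-type word), CAAGGGCA (a match to CAAGGNCA, the NR5A2-type word, which shares 2 bases with the first) and TATAAA.
Cyp8b1 promoter: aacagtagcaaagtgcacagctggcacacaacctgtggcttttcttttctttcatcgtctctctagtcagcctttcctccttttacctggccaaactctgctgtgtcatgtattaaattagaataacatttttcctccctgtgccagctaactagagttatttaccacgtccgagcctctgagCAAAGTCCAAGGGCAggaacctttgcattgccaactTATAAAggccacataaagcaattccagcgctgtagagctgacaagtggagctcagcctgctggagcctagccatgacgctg
The first word spans -67 to -59 from the start, the second -60 to -53 and the third -31 to -26. Over 32851 promoter windows of this length, CAAAGTCCA occurred in 0.475%, CAAGGNCA in 6.71% and TATAAA in 13.6%. Of the 5 members with a window (Cyp27a1, Akr1d1, Hsd3b7, Cyp8b1 and Acox2), Cyp8b1 was the one that held any of these words. Of 3 other words searched on both strands, TTCNNNGAA (STAT5 type, in 8.30% of windows) occurred in Hsd3b7, TTGCNNAA (C/EBP type, in 10.8%) in Akr1d1 and Acox2, and TTATGTAA (PAR bZIP type, in 0.938%) in none of the 5. These are matches of letters and say nothing of binding.

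Cyp7a1, the gate of the classic pathway, measured 92.0, 89.9, 139 and 174 CPM in WT replicates 1 to 4. It measured 443, 261, 354 and 183 CPM in HKO replicates 1 to 4. The groups did not overlap, but the lowest HKO liver was only just above the highest WT liver. HKO over WT, the log2 fold change was 1.33 ± 0.34 (SE, 95% interval 0.53 to 2.12), a 2.51-fold higher mean, and it was not called (adjusted p = 0.0773, edgeR). It was called by DESeq2 (adjusted p = 0.0038), where 8.2% of genes were called, and by limma-voom (adjusted p = 0.0266), where 4.86% were. Of the 8 edgeR fits that left out 1 liver, 1 called it, that without HKO replicate 4 (adjusted p = 0.0478), and the others gave 0.067 to 0.184. A two-sided exact permutation test of the CPM values gave p = 0.0286, the smallest that 4 against 4 livers allow.

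Cyp8b1 was lower and Cyp7a1, though not called, higher in HKO livers, so their ratio was compared within each liver. The log2 ratio of Cyp8b1 to Cyp7a1 was 1.36, 1.24, 0.63 and 0.23 in WT replicates 1 to 4, so Cyp8b1 was the more counted message in every WT liver. It was -1.92, -1.68, -1.31 and -0.34 in HKO replicates 1 to 4, so Cyp7a1 was the more counted in every HKO liver. As both values are CPM and the messages differ in length, the sign is one of read counts; the difference between the groups does not depend on length. The means were 0.86 ± 0.53 and -1.31 ± 0.70 (SD, n = 4 each), a difference of -2.18 with p = 0.0286 in the two-sided exact permutation test and 0.0571 after adjustment over the 2 ratios tested, which does not pass the threshold. Both ratios were chosen with earlier results of these livers known. Cyp8b1 and Cyp7a1 each separated the genotypes, in opposite directions, so their ratio had to separate them too. Its p of 0.0286 was thereby fixed at the smallest possible value and adds no evidence beyond the single genes.

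**Figure D2:**
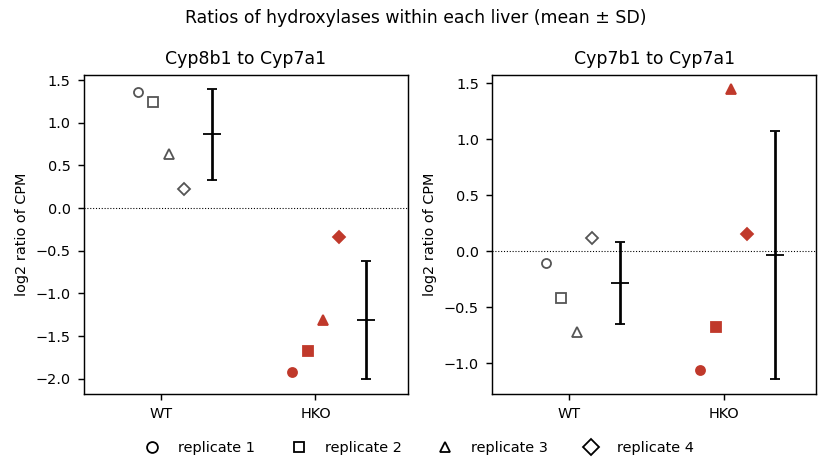
Log2 ratios of CPM within each liver, Cyp8b1 to Cyp7a1 on the left and Cyp7b1 to Cyp7a1 on the right, by genotype with mean ± SD and shape for replicate number. On the left all 4 WT livers lie above 0 (0.23 to 1.36) and all 4 HKO livers below 0 (-1.92 to -0.34), and on the right the groups overlap.

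Cyp27a1 and Cyp7b1 carry the opening steps of the alternative pathway. Only Cyp27a1 was called, so no change of that pathway as a whole is shown. Cyp27a1, the mitochondrial sterol 27-hydroxylase, measured 253, 228, 254 and 242 CPM in WT replicates 1 to 4 and 403, 305, 289 and 406 CPM in HKO replicates 1 to 4. All HKO livers were above all WT livers, with replicates 1 and 4 the highest. This was a log2 fold change of 0.52 ± 0.12 (SE, 95% interval 0.27 to 0.78; adjusted p = 0.0264, edgeR), a 1.44-fold higher level. Without HKO replicate 2 the adjusted p was 0.0271 (edgeR). The call was lost without WT replicate 1 (adjusted p = 0.0662), WT replicate 2 (0.0983), WT replicate 4 (0.0523), HKO replicate 1 (0.0573) or HKO replicate 4 (0.0723), and with total count scaling (0.0515). The log2 fold change was between 0.45 and 0.61 in all 8 fits that left out 1 liver.

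Cyp7b1, the oxysterol 7α-hydroxylase, was the most variable member. WT replicates 1 to 4 measured 85.7, 67.4, 84.7 and 189 CPM. HKO replicates 1 to 4 measured 212, 163, 966 and 205 CPM. WT replicate 4 lay within the HKO range and HKO replicate 3 lay far above all other livers, with a coefficient of variation of 100.1% among HKO and 51.9% among WT livers. The log2 fold change was 1.86 ± 0.73 (SE; adjusted p = 0.230, edgeR), and 0.86 without HKO replicate 3 (adjusted p = 0.320). The log2 ratio of Cyp7b1 to Cyp7a1 was -0.28 ± 0.37 in WT and -0.03 ± 1.11 in HKO livers (SD, n = 4 each), a difference of 0.25 with an exact permutation p of 0.743. Without HKO replicate 3 the sign turned, to -0.25.

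Cyp7b1 is known in mice as a gene with higher levels in males, under the pulsatile pattern of growth hormone. On a list of 20 male-biased targets of this kind, all tested, 3 were called as higher (C8b, Serpina3k and Mup3) and none as lower, against 1.66% and 3.37% of all genes, with a median log2 fold change of 1.05. C8b, a complement component, measured 91.8, 61.99, 92.4 and 128 CPM in WT and 306, 288, 554 and 323 CPM in HKO replicates 1 to 4. Its log2 fold change was 1.97 ± 0.29 (SE; adjusted p = 0.0123, edgeR). The liver with the most Cyp7b1 in each genotype, WT replicate 4 and HKO replicate 3, was also the one with the most C8b. The same livers held the most Serpina3k, a serine protease inhibitor, at 7351 CPM in WT replicate 4 and 15348 CPM in HKO replicate 3. Mup3, a urinary protein, was highest in WT replicate 4 (14964 CPM), but HKO replicate 4 (21696 CPM) was above HKO replicate 3 (20927 CPM). The 20 genes summed to 37646 CPM in WT replicate 4, with 18850 to 25359 CPM in WT replicates 1 to 3, and to 92158 CPM in HKO replicate 3, with 38075 to 48309 CPM in HKO replicates 1, 2 and 4. These top livers were not particular to Cyp7b1 among the members. WT replicate 4 was the highest WT liver for every member but Cyp8b1 and Cyp27a1. HKO replicate 3 was the highest HKO liver also for Hsd3b7, Amacr and Baat, and the remaining members were highest in another HKO liver. All mice were male, and the part of growth hormone signalling in the Cyp7b1 values was not tested.

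**Figure D3:**
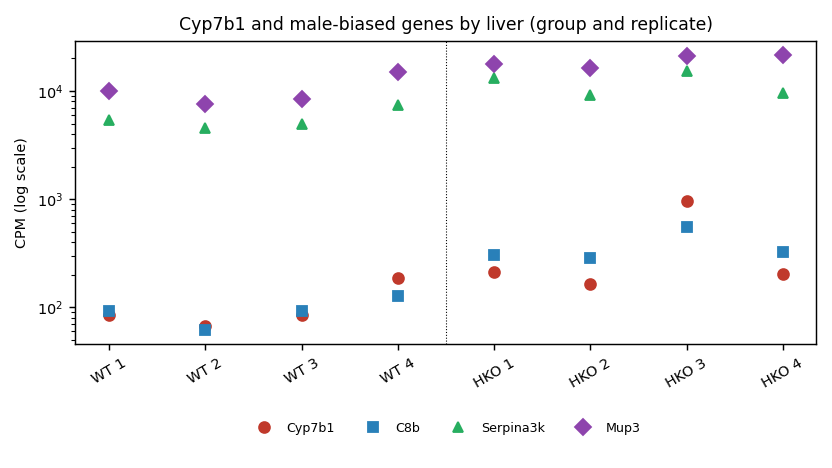
CPM on a log axis of Cyp7b1 and of the 3 called male-biased genes, C8b, Serpina3k and Mup3, in each of the 8 livers, WT left and HKO right of the dotted line. WT replicate 4 and HKO replicate 3 are the highest of their genotype for Cyp7b1 (189 and 966 CPM), C8b and Serpina3k.

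The enzymes that rework the sterol ring showed no genotype difference beyond the spread of the livers. Hsd3b7, the 3β-hydroxysteroid dehydrogenase shared by both pathways, measured 250 to 276 CPM in WT livers and 206 to 308 CPM in HKO livers (log2 fold change 0.01 ± 0.12, SE, 95% interval -0.26 to 0.28; adjusted p = 0.982, edgeR). Akr1d1, the Δ4-3-oxosteroid 5β-reductase, measured 331 to 411 CPM in WT livers and 262 to 458 CPM in HKO livers, with a log2 fold change of 0.04 ± 0.15 (SE, 95% interval -0.30 to 0.38; adjusted p = 0.924, edgeR). HKO values were the wider in both genes, with coefficients of variation of 19.4% and 22.5% against 4.25% and 8.90% in WT.

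The peroxisomal members were also not called. Amacr, the racemase that turns the side chain to the form that can be oxidised, measured 110 to 128 CPM in WT livers and 112 to 151 CPM in HKO livers (log2 fold change 0.22 ± 0.10, SE, 95% interval 0.00 to 0.44; adjusted p = 0.250, edgeR). Acox2, the branched-chain acyl-CoA oxidase, measured 132 to 142 CPM in WT livers and 116 to 160 CPM in HKO livers (log2 fold change -0.05 ± 0.10, SE, 95% interval -0.26 to 0.17; adjusted p = 0.845, edgeR). Hsd3b7 and Acox2 had estimated counts that were not whole numbers in 7 of 8 livers, so that some of their reads were divided between overlapping or similar transcripts.

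Of the conjugating enzymes Slc27a5 rose and Baat was not called. Slc27a5, the bile acid CoA ligase, measured 419, 387, 405 and 443 CPM in WT replicates 1 to 4 and 511, 550, 466 and 629 CPM in HKO replicates 1 to 4. The groups did not overlap, and HKO replicate 4 was the highest. Slc27a5 had a log2 fold change of 0.38 ± 0.10 (SE, 95% interval 0.17 to 0.60; adjusted p = 0.0488, edgeR), 1.30-fold. This was close to the threshold: of the 8 fits that left out 1 liver the call was kept only without HKO replicate 3 (adjusted p = 0.0302), and the others gave 0.0521 (without WT replicate 4) to 0.156 (without WT replicate 2), with 0.0980 without HKO replicate 2. Of the 8 other models, scalings and filters without a block, 4 called it. It was not called by limma-voom (adjusted p = 0.0540) or the legacy quasi-likelihood method (0.0506), nor with upper quartile (0.0511) or total count scaling (0.106). Baat, which joins the CoA ester to taurine or glycine, measured 319 to 436 CPM in WT livers and 350 to 415 CPM in HKO livers (log2 fold change 0.07 ± 0.11, SE, 95% interval -0.17 to 0.31; adjusted p = 0.789, edgeR).

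**Figure D4:**
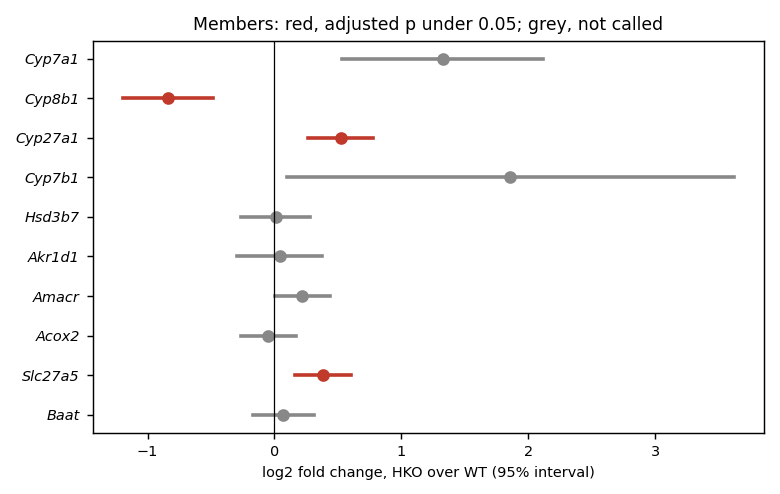
Log2 fold change of each member, HKO over WT, with its 95% interval from edgeR (not adjusted for the number of genes), red where the adjusted p was under 0.05 and grey otherwise. Cyp8b1 lies below 0 (-0.84), Cyp27a1 (0.52) and Slc27a5 (0.38) lie above it, and Cyp7b1 has the widest interval.

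Levels of different genes were compared as CPM per kilobase of each gene's longest coding transcript (GENCODE M21). This need not be the length behind the deposited counts. In WT livers the conjugating enzymes were highest, Baat at 183 ± 28.2 and Slc27a5 at 181 ± 10.2 CPM per kb, and these did not differ beyond their spread. Hsd3b7 (144 ± 6.12), Akr1d1 (137 ± 12.2) and Cyp27a1 (129 ± 6.42) followed with ranges that overlapped from one to the next, as did that of Cyp27a1 with Cyp8b1 (111 ± 7.0). Cyp7b1 (49.2 ± 25.5), Acox2 (46.8 ± 1.48) and Amacr (45.6 ± 2.98) overlapped in a lower group, and Cyp7a1 was the lowest member at 29.7 ± 9.69 CPM per kb, its range clear of that of Amacr but overlapping that of Cyp7b1. In HKO livers Slc27a5 came first (236 ± 30.2 CPM per kb). Cyp7a1 stood seventh at 74.4 ± 27.02 and Cyp8b1 eighth at 62.3 ± 15.1 CPM per kb, and each neighbouring pair in that order overlapped.

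Beyond the members, 21 of 22 other enzymes of bile acid synthesis and processing were tested. Of these 5 were called, 1 higher and 4 lower, against 1.66% and 3.37% of all genes tested. Cyp2c70, which makes the muricholic acids of mice by 6β-hydroxylation, measured 229, 174, 202 and 297 CPM in WT and 693, 642, 853 and 602 CPM in HKO replicates 1 to 4. The genotypes did not overlap. Its log2 fold change was 1.63 ± 0.17 (SE; adjusted p = 0.00098, edgeR), and all 8 fits that left out 1 liver called it. The 4 that were lower serve peroxisomal import or β-oxidation. Hsd17b4, the bifunctional protein that acts after Acox2, was at 573 to 672 CPM in WT livers and 380 to 442 CPM in HKO livers (log2 fold change -0.56 ± 0.09, SE; adjusted p = 0.0043, edgeR). Acaa1b, a thiolase, was at 563 to 792 CPM in WT livers and 215 to 247 CPM in HKO livers (log2 fold change -1.59 ± 0.11, SE; adjusted p = 9.4e-05). Acaa1a, its near-identical copy, had a log2 fold change of -0.48, and reads could have been divided between the pair, so their separate values are uncertain. Abcd3, the peroxisomal importer of bile acid precursors, differed by -0.42 on the log2 scale (adjusted p = 0.0250, edgeR) and was called in 3 of 8 fits that left out 1 liver. Scp2, a gene that encodes a thiolase acting on bile acid side chains, was at 6995 to 9507 CPM in WT livers and 6399 to 8315 CPM in HKO livers. Scp2 was not called (adjusted p = 0.505, edgeR). As counts are per gene, the thiolase message was not measured apart from other transcripts of Scp2. Slc27a2, which activates the precursors, was not called either (log2 fold change -0.07, adjusted p = 0.796). Ch25h was at or under the limit that 3 counts allow in every liver and was not tested.

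Cyp2c70 and Cyp8b1 moved in opposite directions, and the part of the word CAAAGTCCA in either change was not tested. The pair was chosen with these values known. The Cyp2c70 promoter is printed beside that of Cyp8b1 because both hold CAAAGTCCA close to the start. It is at chr19:40187237-40187536, minus strand, GRCm38.p6 (RefSeq), and capitals mark CAAAGTCCA, at -64 to -56, and TTTATA, the reverse complement of TATAAA, at -29 to -24.
Cyp2c70 promoter: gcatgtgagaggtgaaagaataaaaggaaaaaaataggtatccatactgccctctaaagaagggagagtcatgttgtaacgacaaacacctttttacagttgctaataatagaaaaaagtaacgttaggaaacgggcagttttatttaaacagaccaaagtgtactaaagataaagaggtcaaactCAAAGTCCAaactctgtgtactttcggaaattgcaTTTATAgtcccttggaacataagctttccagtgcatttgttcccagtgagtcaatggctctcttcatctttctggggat

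Of 27 regulators of bile acid synthesis 26 were tested, and 4 were called, against 5.03% of all genes tested. Hnf4a, the hepatocyte nuclear receptor that acts on the promoters of Cyp7a1 and Cyp8b1, was at 435 to 471 CPM in WT livers and 499 to 633 CPM in HKO livers (log2 fold change 0.36 ± 0.09, SE; adjusted p = 0.0406, edgeR). Nr5a2 (LRH-1), which acts at the same promoters, was at 69.5 to 79.8 CPM in WT livers and 81.8 to 103 CPM in HKO livers (log2 fold change 0.37, adjusted p = 0.0368). Klf15, a glucocorticoid-responsive factor, differed by 0.47 on the log2 scale (adjusted p = 0.0373), and Ppara, the receptor that drives fatty acid oxidation genes, had one of -0.33 (adjusted p = 0.0358). These 4 calls were close to the threshold, as each was kept in 1 or 2 of the 8 fits that left out 1 liver. Nr5a2 was called without HKO replicate 3 or WT replicate 3, Klf15 without HKO replicate 3 or WT replicate 4, Hnf4a only without HKO replicate 3 and Ppara only without HKO replicate 1, and with total count scaling Nr5a2 (adjusted p = 0.153), Hnf4a (0.151) and Klf15 (0.0828) were not called. Nr1h4, which encodes FXR, was not called (log2 fold change 0.04 ± 0.09, SE; adjusted p = 0.852, edgeR), and neither was its target Nr0b2, which encodes SHP, at 10.2 to 16.3 CPM in WT livers and 11.1 to 26.7 CPM in HKO livers (adjusted p = 0.369). The receptor for the intestinal hormone FGF15, made of Fgfr4 and Klb, had log2 fold changes of 0.35 and 0.29 (adjusted p = 0.160 and 0.495), and neither was called. Mafg and Prox1, repressors of this pathway, were not called (log2 fold changes 0.09 and 0.30). Of 17 clock and clock output genes tested, which drive the daily rhythm of Cyp7a1, edgeR called 0. DESeq2 and limma-voom also called 0 of these, and 1 had an unadjusted p under 0.05 in edgeR. Their log2 fold changes had a median of 0.15, with 15 positive and 2 negative, against a median of 0.01 for all genes tested. Dbp, the clock output factor that acts on Cyp7a1, was at 52.1 to 63.2 CPM in WT livers and 49.5 to 77.0 CPM in HKO livers.

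**Figure D5:**
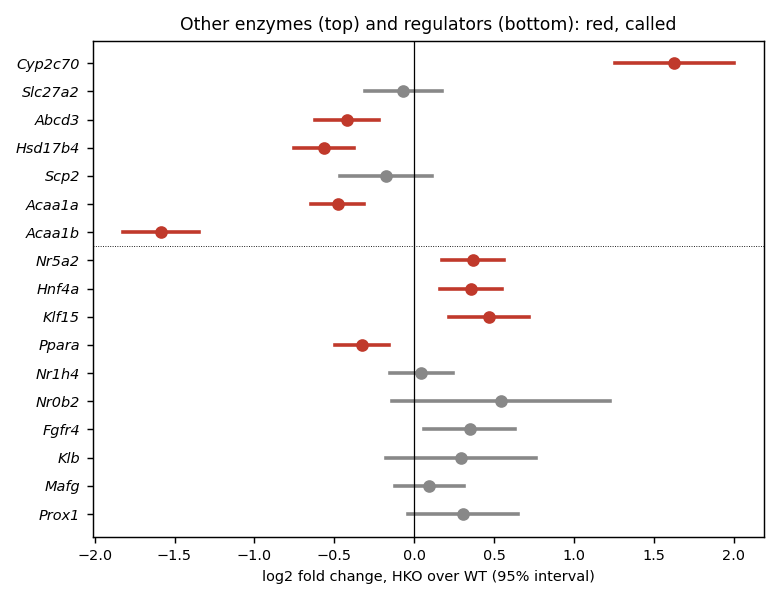
Log2 fold changes, HKO over WT, with 95% intervals from edgeR for 7 other enzymes of the pathway (above the dotted line) and 10 regulators (below it), red where the adjusted p was under 0.05. Cyp2c70 lies far to the right (1.63), Acaa1b far to the left (-1.59), and FXR (Nr1h4) and SHP (Nr0b2) cross 0.

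Of 12 bile acid and biliary lipid transporters tested, Atp8b1, a phospholipid flippase, rose (log2 fold change 0.50, adjusted p = 0.0196, edgeR) and Abcb4, the phosphatidylcholine exporter, fell (-0.54, adjusted p = 0.0154). Abcb11, the bile salt export pump, and Slc10a1, the uptake carrier, were not called (log2 fold changes 0.41 and 0.18). Since Cyp7a1 and Cyp8b1 are known to be zoned around the central vein, zonation lists were read beside the members. Over all genes tested, 1.66% were called as higher and 3.37% as lower. Of 12 pericentral genes, Cyp1a2 and Gulo were higher and none lower, with a median log2 fold change of 0.33 (9 positive, 3 negative). Of 12 periportal genes, Ass1, Cps1 and Pigr were higher and Hsd17b13 lower, with a median of 0.45 (10 positive, 2 negative). Without WT replicate 1 or WT replicate 2, 2 of these 4 periportal genes were called, and Ass1 was called in 2 of the 8 fits that left out 1 liver. The part of zonation in the member values was not tested. Of the 12 LXR target genes, Abca1 was higher and Smpdl3a, a phosphodiesterase, lower (log2 fold change -0.45, adjusted p = 0.0444, edgeR). Neither was called without WT replicate 1 or WT replicate 2, and of the 8 fits that left out 1 liver 6 called Abca1 and 2 called Smpdl3a.

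Among marker lists of other liver cells, 0 of 10 sinusoidal endothelial, 0 of 3 tested cholangiocyte and 0 of 5 erythroid genes were called in edgeR. DESeq2 and limma-voom also called 0 of these, and 0 of each had an unadjusted p under 0.05 in edgeR. The absence of calls does not show equal levels, as the 95% interval of Kdr, for one, ran from -0.59 to 1.96. Endothelial log2 fold changes had a median of 0.50, with 9 positive and 1 negative. Their sums were 102 to 301 CPM in WT livers and 154 to 339 CPM in HKO livers. The erythroid median was -1.88, with 4 negative and 1 positive. Stellate cell markers Col1a1 and Col3a1 fell (log2 fold changes -2.81 and -1.87), 2 of 10 tested, and Ccr2 fell (-0.81), 1 of 10 Kupffer cell and macrophage markers. Summed levels of the 10 stellate markers were 460.0 to 596 CPM in WT livers and 375 to 526 CPM in HKO livers, and lymphocyte markers summed to at most 3.92 CPM. Of 9 hepatocyte markers tested, 4 were higher (Ahsg, Fgb, Hnf4a and Serpina1a), a count that was 0 without WT replicate 2. Over all genes tested, 1.66% were called as higher and 3.37% as lower. The part of cell composition in the member values was not tested.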

How the data were processed

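RNA-Seq was analysed from 4 WT and 4 HKO livers. The authors deposited estimated counts per gene, made in Partek from STAR alignments per the labels; versions and quantification settings were not given in the sources used here. Of the deposited values, zeros included, 80.3% were exactly whole, and the rest were rounded. Listed coordinates follow GRCm38, and for 65.3% of genes found in RefSeq the listed end was 1 base beyond the RefSeq end, so that 1 was subtracted; 0 columns were left unmapped. Since rRNA depletion and a kit for small RNA are both named in the labels, the library type is uncertain. Totals of 12174339 to 18735785 counts put 3 counts at 0.160 to 0.246 CPM.

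Counts were tested with edgeR 4.0.16 in R 4.3.3 (TMM scaling, default filter with a minimum count of 10, robust quasi-likelihood, Benjamini-Hochberg adjustment over 12395 genes). Each standard error was taken as the log2 fold change, without sign, over the square root of F. Ratios of log2 CPM (prior count 2) were compared by two-sided exact permutation tests over 70 allocations of livers (SciPy 1.17.1). As alternatives, limma-voom (limma 3.58.1) and DESeq2 1.42.0 were run, scaling was by upper quartile, RLE or total count, and filters, thresholds and the quasi-likelihood method (legacy) were varied. Replicate number was added as a block, and each liver was left out. The members, gene lists and tests were chosen with earlier results of these data known. All members were named, and of other lists the genes with an adjusted p under 0.05 and a fixed set of genes with a direct role. Single livers far from their group were sought with Dixon's test in groups of 4 livers.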

Additional observations from a re-analysis of the deposited data

Results flagged for a closer look

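Of 110 groups of 4 livers examined, 10 held a liver far from the other 3 by Dixon's test at the 95% level. Chance gives about 1 in 20, here 6. Both genotypes held one for Cyp7b1: WT replicate 4 at 189 CPM, with WT replicates 1 to 3 at 67.4 to 85.7 CPM, and HKO replicate 3 at 966 CPM, with HKO replicates 1, 2 and 4 at 163 to 212 CPM. HKO replicate 3 also stood apart for C8b, at 554 CPM against 288 to 323 CPM. WT replicate 4 stood apart for Atp8b1 (69.8 CPM, against 58.2 to 58.6 CPM) and for Cyp1a2 (173 CPM, against 143.4 to 144.6 CPM).

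WT replicate 1 stood apart for Abcd3 (1038 CPM, against 898 to 909.6 CPM) and for Slc10a1 (916 CPM, against 700.2 to 718 CPM). WT replicate 3 stood apart for Nr5a2 (79.8 CPM, against 69.5 to 71.1 CPM) and for Hnf4a (471 CPM, against 435 to 441 CPM). Summed Kupffer cell and macrophage markers stood apart in HKO replicate 2, at 74.7 CPM against 211 to 234 CPM in the other HKO livers. Of the 10 members, Cyp7b1 was the one with such a liver.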

How the results depend on the processing

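The number of members called was 3, and 4 with DESeq2, 1 with total count scaling, 1 where a fold change above 1.5 was also required, 6 at an unadjusted p under 0.05, and 0 to 3 when 1 liver was left out. It was 0 without WT replicate 1, WT replicate 2 or HKO replicate 1, and 1 without WT replicate 4. Over all genes 624 were called, with 1014 by DESeq2, 367 with the fold change, 2455 unadjusted, and 212 to 598 without 1 liver (272 without WT replicate 1, 212 without WT replicate 2, 364 without HKO replicate 4). The cause was not tested. Calls within lists moved as well: DESeq2 and limma-voom called 9 and 7 of the male-biased genes (3 in edgeR) and 6 and 4 of the transporters (2), DESeq2 called 5 pericentral (2), 7 periportal (4) and 5 LXR target genes (2), and 2 regulators were called with total count scaling and 0 with the block (4). Without WT replicate 1 or WT replicate 2, 0 LXR target genes, 0 regulators, 1 transporter and 2 periportal genes were called. Regulators called were also 0 without HKO replicate 2 and 1 without WT replicate 4, HKO replicate 1 or HKO replicate 4. Ccr2 was called only without HKO replicate 2 or HKO replicate 3 among these fits. Cyp8b1 and Cyp2c70 were called under all 9 other models, scalings and filters. Replicate numbers occur in both genotypes, but same-numbered livers did not deviate together (r = -0.06, 0.01, -0.08 and -0.15). Differently numbered livers gave r of -0.21 to 0.24. Nothing shows that the numbers mark pairs, but this check cannot exclude a pairing, as it rests on 4 livers in each genotype. With the number as a block 2 members and 456 genes were called, and Slc27a5 was not (adjusted p = 0.0691, edgeR). The ratio of Cyp8b1 to Cyp7a1 kept its difference of -2.18 with an exact sign-flip p of 0.125, the smallest that 4 pairs allow. That p was also fixed by the separation of the genotypes in both genes.

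The difference in the log2 ratio of Cyp8b1 to Cyp7a1 was -2.50 to -1.97 without 1 liver, where p cannot go below 0.0571, and that of Cyp7b1 to Cyp7a1 was -0.25 to 0.59, turning sign to -0.25 without HKO replicate 3. Some log2 fold changes near 0 turned sign, and none of these genes was called. Under total count scaling they were Hsd3b7 (-0.085), Akr1d1 (-0.039), Baat (-0.015), Nr1h4 (-0.043) and Dbp (-0.0014). For Hsd3b7 it also turned with limma-voom (-0.012) and with the block (-0.011). Over the 8 fits that left out 1 liver, Hsd3b7 ranged from -0.072 to 0.11, Akr1d1 from -0.059 to 0.19, Acox2 from -0.16 to 0.0069, Nr1h4 from -0.020 to 0.095 and Dbp from -0.061 to 0.16.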
